A study of Mus musculus with 6 samples.

Results

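Immediate early genes are the first genes a cell transcribes after a stimulus. Of 10 such genes, namely Fos, Fosb, Egr1, Egr2, Nr4a1, Dusp1, Btg2, Zfp36, Klf6 and Atf3, 9 were measured here in mouse pancreatic islets, out of 39470 loci in the deposited assembly. Each gene was linked to its assembled locus by the lengths of its exons and introns on the same chromosome and strand, and a gene was left out where over 90% of the exonic bases of its locus were also exonic bases of another locus. That removed Fos, at 91.1%. The islets came from C57BL/6 mice, an inbred laboratory strain, that were 14 weeks old at sacrifice and had been fed for 8 weeks, either with a high fat diet as a model of diet-induced obesity or with a normal diet. There were 3 libraries of total RNA depleted of ribosomal RNA per diet, with 106332715 to 135353777 counted reads each on the high fat diet and 104657337 to 133633996 on the normal diet. Levels are given as CPM, reads of a locus scaled to one common library size after TMM normalisation, which corrects for a shift in the bulk of genes. The labels do not name the animals behind a library, so a p-value here sets a difference against the spread of 3 libraries per diet, and part of that spread may be technical. In the count table the high fat columns carry the abbreviation HDR, whose meaning no source used here gives. Its reading as high fat rests on the names alone, and every direction given depends on it.

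Immediate early genes are transcribed within minutes of a signal, without new protein synthesis, through transcription factors that are already present in the cell. Serum response factor with its ternary complex partners, driven by the MAP kinase cascade, and CREB, driven by cyclic AMP and calcium, are the best known of these. In beta cells glucose and incretin hormones raise both calcium and cyclic AMP and induce several of these genes. The transcripts are short-lived, and many of the proteins, among them the phosphatase DUSP1 and the RNA-binding protein ZFP36, switch the response off again.

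Promoters are shown for the 4 genes that passed the test of diet, because they hold letters that CREB or serum response factor are known to bind. The sequences are RefSeq's for build GRCm38.p6, in the direction of the gene, and end at the base before the annotated start of the transcript. Capitals mark TGACG, the core of the cyclic AMP response element, the full element TGACGTCA that contains it, and the CArG box bound by serum response factor, each on either strand.
Fosb (chr7:19310046-19310215, minus strand): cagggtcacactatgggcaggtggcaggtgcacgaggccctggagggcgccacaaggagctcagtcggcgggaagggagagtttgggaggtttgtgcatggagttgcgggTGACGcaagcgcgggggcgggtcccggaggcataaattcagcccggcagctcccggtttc
Atf3 (chr1:191183334-191183503, minus strand): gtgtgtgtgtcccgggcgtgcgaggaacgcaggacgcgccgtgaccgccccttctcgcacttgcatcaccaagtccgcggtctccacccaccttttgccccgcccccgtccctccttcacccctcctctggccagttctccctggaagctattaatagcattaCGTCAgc
Dusp1 (chr17:26508473-26508642, minus strand): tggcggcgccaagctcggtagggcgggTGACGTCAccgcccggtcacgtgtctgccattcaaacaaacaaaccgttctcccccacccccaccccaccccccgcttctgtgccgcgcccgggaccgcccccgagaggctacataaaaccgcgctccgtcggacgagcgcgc
Zfp36 (chr7:28379229-28379398, minus strand): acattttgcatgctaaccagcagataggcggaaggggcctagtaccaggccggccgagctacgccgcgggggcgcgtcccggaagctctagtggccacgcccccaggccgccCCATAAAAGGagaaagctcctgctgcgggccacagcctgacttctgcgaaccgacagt
In Fosb and Atf3 the core began 60 and 7 bases before the start, in Dusp1 the full element began 143 bases before it, and in Zfp36 a CArG box began 58 bases before it. In the 250 bases before a start, TGACG was found for 7 of the 9 listed genes searched. These include Fos and not Egr1, so that they are not the 9 genes tested. The genes without TGACG were Zfp36 and Klf6, and 19.8% of all 27025 genes held it. TGACGTCA was found for 2 of 9, Dusp1 and Btg2, against 1.77% of all genes. The CArG box was found for 2 of 9, Zfp36 and Egr2, against 1.62%. TATAAA was found for Fos alone, against 14.3% of all genes. The letters GGGCGG, which Sp1 and related factors bind, were found for 9 of 9, against 35.4%. These matches describe letters in a window and not the binding of a factor, and Nr4a1, Egr2, Btg2 and Fos, which did not pass the test or were not counted in it, held TGACG as well.

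Of the 9 genes 4 fell in islets of the high fat diet, namely Atf3, Fosb, Dusp1 and Zfp36, and 0 rose by edgeR. DESeq2 called 5 lower, these and Egr1, and 0 higher. At an unadjusted p under 0.05 in edgeR 6 were lower, the same 4 with Egr1 and Egr2, and 0 higher. By that cut-off 7623 of all 23983 loci tested passed in either direction. The levels of the 4 genes were between 2.78-fold and 1.53-fold lower than on the normal diet. The test was the quasi-likelihood test of edgeR, adjusted over 23983 loci after Benjamini and Hochberg with a threshold of 0.05, and by it 4.86% of all loci were lower and 5.95% higher. These were 1165 and 1426 loci, and 3039 and 300 with library totals in place of TMM, where 5 of the 9 genes fell. The median log2 fold change, high fat over normal diet, was -0.76 for the 9 genes and -0.050 for all loci tested. It was negative in 7 of the 9 genes, as it was in 54.5% of all loci. In 5 of the 9 genes all high fat libraries lay below all normal diet libraries, as they did in 20.4% of all loci, and in 1, Btg2, they all lay above, as they did in 18.8%. The calls depended on single libraries. Without normal diet library 1, 2 or 3, or without high fat library 2, 0 of the 9 genes passed in edgeR, while 5 or 6 had an unadjusted p under 0.05. The loss was not particular to these genes. Without a normal diet library 0 of all loci passed, and without high fat library 2 only 29 were lower and 57 higher. In these fits 5500 to 6399 loci had an unadjusted p under 0.05. Leaving out high fat library 1 kept the call of Fosb alone, where 34 of all loci were lower and 94 higher. Leaving out high fat library 3 gave 4 calls, where 1960 of all loci were lower and 3075 higher. With the acinar marker level of each library in the fit, 0 of the 9 passed and 5 had an unadjusted p under 0.05. Of all loci 0 passed in that fit and 4905 had an unadjusted p under 0.05.

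**Figure D1:**
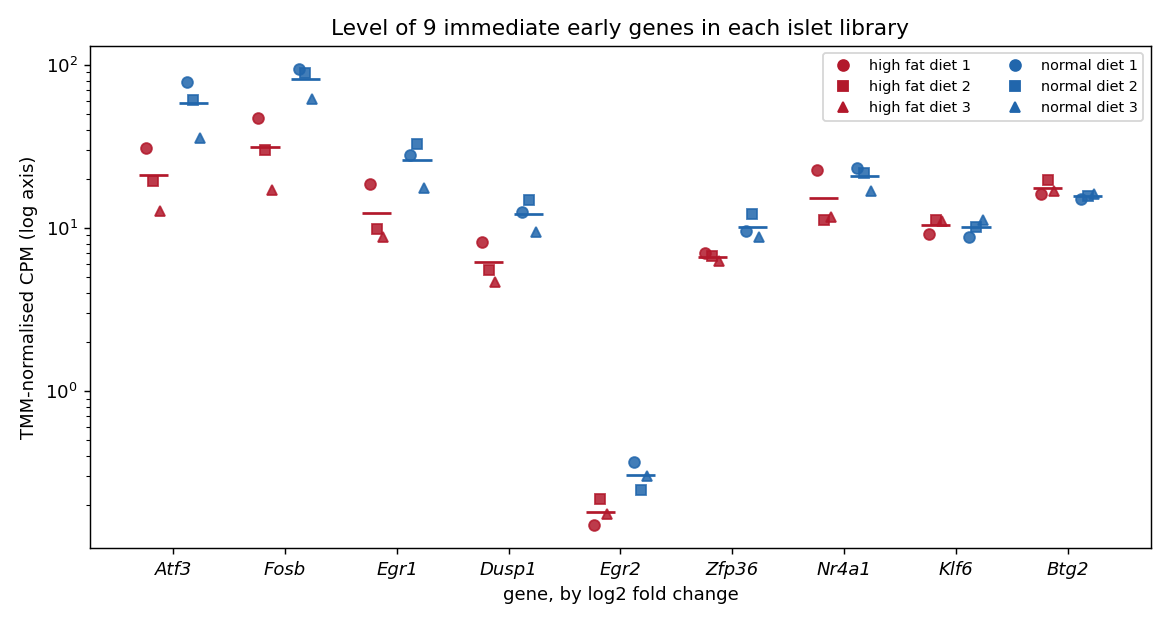
Level of each of the 9 genes in each library, as TMM-normalised CPM on a log axis, with genes ordered by log2 fold change. Red symbols are the 3 high fat libraries and blue symbols the 3 normal diet libraries, the symbol shape gives the library number and the short lines are group means. Without overlap between the diets, Atf3, Fosb, Dusp1, Egr2 and Zfp36 lie lower on the high fat diet and Btg2 lies higher. Of all loci tested 20.4% lie lower and 18.8% higher in this way.

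Fosb and Atf3 encode transcription factors of the basic leucine zipper class. FOSB joins a JUN protein to form AP-1, and ATF3 is induced by many kinds of stress and acts mostly as a repressor. Fosb (chromosome 7, 19880977 to 19895394 of build mm9, minus strand) had 46.8, 30.0 and 17.0 CPM in high fat libraries 1, 2 and 3, against 94.5, 89.1 and 61.3 CPM in normal diet libraries 1, 2 and 3. The highest high fat library stayed below the lowest normal diet library, and the high fat libraries spread widely among themselves. Fosb fell by 1.38 on the log2 scale (SE 0.32, adjusted p = 0.0347 by edgeR). Atf3 (chromosome 1, 192992290 to 193041918, minus strand) had 30.8, 19.5 and 12.6 CPM in high fat libraries, against 78.9, 60.8 and 35.3 CPM in normal diet libraries. The order of the libraries was the same as for Fosb in both diets. The change of Atf3 was the largest of the 9, a log2 fold change of -1.48 (SE 0.35, adjusted p = 0.0362 by edgeR). Fosb shares 4.10% of its exonic bases with Rtn2 on the other strand, whose log2 fold change was 0.0011 (SE 0.22), and Atf3 shares 0 bases with another locus. Fos, the founding member of the AP-1 family, held between 293 and 448 reads per high fat library and between 580 and 638 per normal diet library. It is given here only for completeness, since 15043 of its 16521 assembled exonic bases lie opposite another assembled locus. The sources used here do not say whether reads in shared bases were counted. However, Dusp5, Dusp6, Id1, Spry2 and Mapk14, whose loci share 100% of their exonic bases, held 0 reads in every library. Reads in shared bases thus appear not to have been counted. The levels of Klf6, Btg2, Dusp1 and Klf4 would then rest on their unshared bases alone.

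Egr1 and Egr2 encode zinc finger transcription factors that carry an early signal on to later genes. Egr1 had 18.6, 9.79 and 8.82 CPM in high fat libraries 1, 2 and 3, against 28.1, 32.7 and 17.5 CPM in normal diet libraries. High fat library 1 and normal diet library 3 crossed, so that the groups overlapped. The log2 fold change was -1.07 (SE 0.31) and did not pass (edgeR adjusted p = 0.0579), although it did with DESeq2 (adjusted p = 0.0047), without a filter on low counts (0.0438) and with library totals in place of TMM (0.0302). Egr2 (chromosome 10, 66999839 to 67005945, plus strand) was the scarcest of the 9 genes, with 17, 21 and 23 reads in high fat libraries, against 46, 27 and 43 reads in normal diet libraries. The diets did not overlap at that depth, and the log2 fold change of -0.76 (SE 0.28) did not pass (edgeR adjusted p = 0.107).

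Nr4a1 encodes an orphan nuclear receptor induced by calcium and cyclic AMP, and Klf6 a zinc finger factor of the Krüppel-like family. Nr4a1 (chromosome 15, 101084712 to 101107907, plus strand) had 22.8, 11.2 and 11.6 CPM in high fat libraries 1, 2 and 3, against 23.4, 21.8 and 16.9 CPM in normal diet libraries. High fat library 1 lay among the normal diet libraries and the other high fat libraries below them. The log2 fold change was -0.44 (SE 0.27, adjusted p = 0.282 by edgeR), and -0.85 without high fat library 1 (adjusted p = 0.0522). Klf6 (chromosome 13, 5860735 to 5869639, plus strand) had between 9.15 and 11.2 CPM in high fat libraries, against 8.80 to 11.2 CPM in normal diet libraries. The groups overlapped throughout, with a log2 fold change of 0.058 (SE 0.14, adjusted p = 0.808 by edgeR). Of the exonic bases of the Klf6 locus 77.2% are shared with an unnamed locus on the other strand, at a log2 fold change of -0.48 (SE 0.20, adjusted p = 0.131 by edgeR).

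Dusp1, Zfp36 and Btg2 encode proteins that limit a response. DUSP1 is a phosphatase that inactivates MAP kinases, ZFP36, also called tristetraprolin, binds AU-rich RNA and speeds its decay, and BTG2 is an antiproliferative protein that promotes the removal of poly(A) tails. Dusp1 (chromosome 17, 26637477 to 26653318, minus strand) had 8.19, 5.54 and 4.68 CPM in high fat libraries 1, 2 and 3, against 12.5, 14.8 and 9.38 CPM in normal diet libraries. The groups did not overlap, and Dusp1 fell by 0.99 on the log2 scale (SE 0.23, adjusted p = 0.0362 by edgeR). Of the exonic bases of its locus 43.7% are shared with an unnamed locus on the other strand, which held at most 0.0547 CPM in any library. Of that unnamed locus's own 7178 exonic bases 6919 are the shared ones, where reads appear not to have been counted. Its low level therefore cannot show how much it was transcribed. Zfp36 (chromosome 7, 29159367 to 29164291, minus strand) had 7.03, 6.68 and 6.23 CPM in high fat libraries, against 9.63, 12.2 and 8.74 CPM in normal diet libraries. The high fat libraries lay closer together than those of any other gene that passed, and Zfp36 fell by 0.62 on the log2 scale (SE 0.15, adjusted p = 0.0389 by edgeR). Btg2 (chromosome 1, 135953953 to 135975760, minus strand) did not pass. It had 16.2, 19.8 and 16.9 CPM in high fat libraries, against 15.1, 15.8 and 16.1 CPM in normal diet libraries, a log2 fold change of 0.17 (SE 0.11, adjusted p = 0.324 by edgeR). The Btg2 locus shares 70.3% of its exonic bases with other loci, 12296 of these 12883 bases with an unnamed locus on the other strand. That unnamed locus had a log2 fold change of -0.68 (SE 0.23, adjusted p = 0.0891 by edgeR). The Btg2 locus was also assembled far beyond the reference transcript, with 18322 exonic bases against 3083 in the UCSC transcript it contains.

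**Figure D2:**
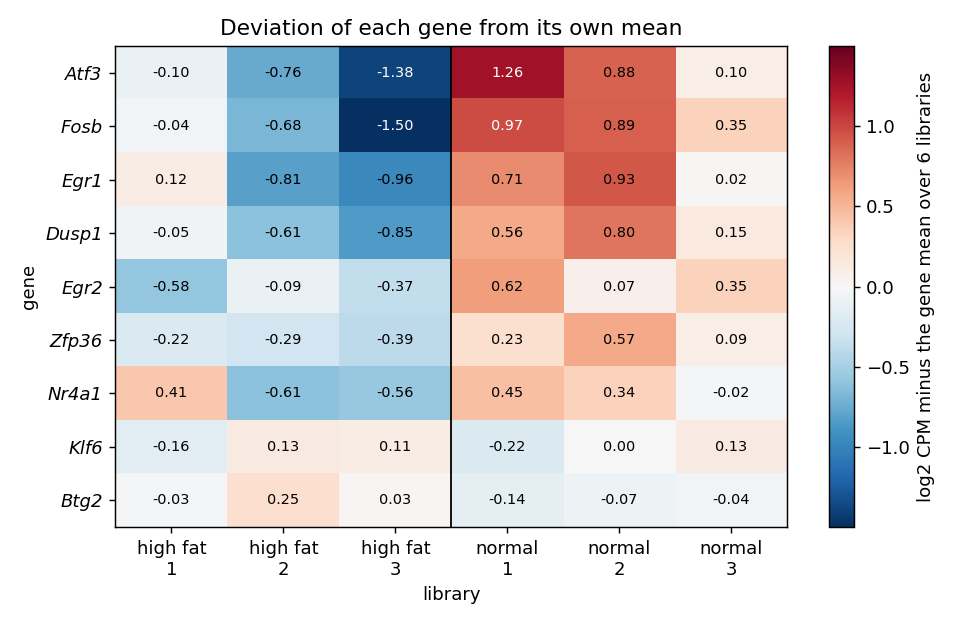
Deviation of each gene in each library from that gene's own mean over the 6 libraries, in log2 CPM (prior count 2), with the 3 high fat libraries left of the line and the 3 normal diet libraries right of it. High fat library 3 is the lowest for Atf3 and Fosb at -1.38 and -1.50, while high fat library 1 stays near 0 for most genes and at 0.41 for Nr4a1.

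The libraries of one diet were not alike in these genes. Within the high fat diet, library 1 was the highest in 6 of 9 genes and library 3 the lowest in 5 of 9. Within the normal diet, library 3 was the lowest in 6 of 9. The median deviation over the 9 genes was -0.047, -0.61 and -0.56 log2 CPM in high fat libraries 1, 2 and 3, against 0.56, 0.57 and 0.099 in normal diet libraries. High fat library 1 and normal diet library 3 were therefore neighbours, and the other libraries of the diets stood farther apart. Summed over the 9 genes, the level was 159.8, 114 and 89.1 CPM in high fat libraries, against 271, 257.5 and 177 CPM in normal diet libraries. On all loci with a mean of at least 1 CPM, the second principal component set high fat library 3 (-34.3) apart from high fat libraries 1 (23.1) and 2 (21.6), and without it the log2 fold changes of Fosb and Atf3 were -1.08 and -1.21.

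Levels per length depended on which length was used. Divided by all exonic bases of the locus, the mean over the 6 libraries was highest for Egr1 at 6.27 CPM per kilobase, then Fosb at 5.21, Atf3 at 2.75, Klf6 at 2.42, Zfp36 at 1.98, Nr4a1 at 1.29, Btg2 at 0.909, Dusp1 at 0.579 and Egr2 at 0.0512 CPM per kilobase. Divided by the exonic bases of the UCSC transcripts in the locus, the order of the most abundant was Atf3 at 18.5 CPM per kilobase, Fosb at 14.9, Nr4a1 at 7.24 and Egr1 at 6.27. The assembled locus was far longer than those transcripts for Atf3, Nr4a1, Dusp1 and Btg2. It was also longer for Fosb (10844 against 3776 exonic bases), Zfp36 (4245 against 1765) and Egr2 (4752 against 2965). The full length also includes bases shared with another locus, 3276 of 4244 in Klf6, 12883 of 18322 in Btg2 and 6919 of 15842 in Dusp1. Reads there appear not to have been counted, so the values of these genes may be too low. For Klf6 the UCSC length of 4217 bases includes shared bases as well. The order among the 9 genes is therefore not settled. Egr2 was last by both lengths.

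Other genes of the early response did not move as one group. A list of 70 further early response genes, written with earlier results of these data known, gave 52 loci under the same rule, of which 50 passed the filter on low counts. Of these 2 were lower, 7 higher and 41 not past the threshold, where 4.86% of all loci were lower and 5.95% higher. At an unadjusted p under 0.05 11 were lower and 10 higher, where 7623 of all 23983 loci passed in either direction. The median log2 fold change was 0.043, against -0.050 for all loci. The 2 that were lower became 4 without high fat library 3 and 0 without any other library, and 11 with library totals. The 7 that were higher became 9 without high fat library 3, 0 without any other library, and 2 with library totals. Jun, Junb and Jund, which encode partners of the FOS proteins, are not analysed here because loci of a single exon were not named.

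The 7 genes that rose on the high fat diet are led by Fosl2 and Rgs2. Rgs2, a regulator of G protein signalling induced by cyclic AMP, had 340, 597 and 281 CPM in high fat libraries 1, 2 and 3, against 175, 109 and 148 CPM in normal diet libraries, 2.82-fold higher on average (SE 0.27 on the log2 scale, adjusted p = 0.0238 by edgeR). Fosl2, a relative of Fosb in the AP-1 family, had 13.7, 12.9 and 15.0 CPM in high fat libraries, against 9.24, 8.15 and 8.39 CPM in normal diet libraries, a log2 fold change of 0.69 (SE 0.12, adjusted p = 0.0212 by edgeR). Fosl2 and Fosb thus changed in opposite directions, each without overlap between the diets. Crem, which encodes activators and the inducible repressor ICER of cyclic AMP responsive genes, rose by 0.63 (SE 0.12) and Dusp4, a MAP kinase phosphatase like Dusp1, by 0.55 (SE 0.12). Nab1, which encodes a corepressor of EGR proteins, rose by 0.43 (SE 0.09). Klf9, a Krüppel-like factor that also responds to glucocorticoids, and Mcl1, an antiapoptotic relative of BCL2, rose by 0.49 and 0.30.

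Of the early response genes that fell, Egr3, a relative of Egr1 and Egr2, had 0, 0 and 3 reads in high fat libraries, against 15, 27 and 18 reads in normal diet libraries. The ratio of summed reads, high fat over normal diet and corrected for depth, was 0.0556 with an exact binomial 95% interval from 0.0111 to 0.170, which covers counting error only. Egr3 passed (edgeR adjusted p = 0.0264) at a level far below that of Egr1. Klf4, a Krüppel-like factor, averaged 0.975 ± 0.28 CPM on the high fat diet and 1.94 ± 0.32 CPM on the normal diet (SD, n = 3 each), which gives a log2 fold change of -0.99 (edgeR adjusted p = 0.0399), with 81.2% of the exonic bases of its locus shared. Among the relatives of Nr4a1, named here for their family and not by the rule for named genes, Nr4a2 had a log2 fold change of 0.32 (edgeR adjusted p = 0.157) and Nr4a3 held 2 to 5 reads per high fat library and 8 or 9 per normal diet library, too few to be tested. Egr4 had 0 reads in all high fat libraries and at most 3 in a normal diet library. Npas4, a factor induced by calcium in excitable cells, and Per1, a clock gene with an early response to cyclic AMP, stood at -0.71 and -0.38 and did not pass (edgeR adjusted p = 0.104 and 0.0832).

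**Figure D3:**
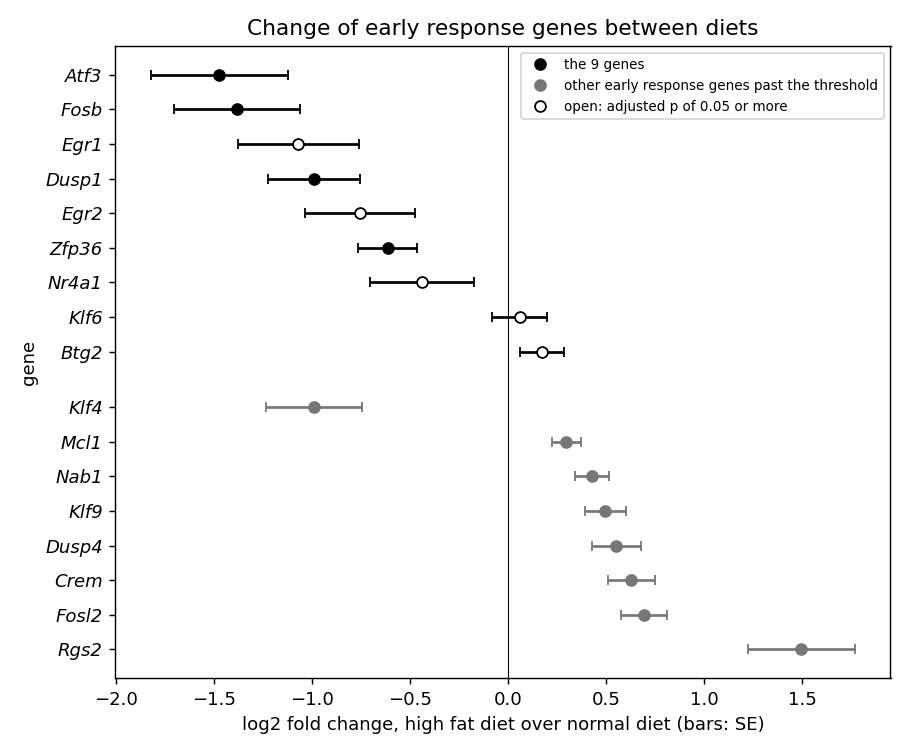
Log2 fold change, high fat over normal diet, with its SE, for the 9 genes (black, top) and for other early response genes past the threshold (grey, bottom), where open symbols mark an adjusted p of 0.05 or more. Egr3 is left out because its high fat libraries held 3 reads in all. The 9 genes run from -1.48 for Atf3 to 0.17 for Btg2, while 7 of the 8 grey genes lie above 0.

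Genes of the signalling routes that lead to immediate early transcription were examined as a list. Of 41 kinases, phosphatases, channels and factors on a list of such genes, including Srf, the Elk factors, Creb1 and the ERK cascade, 39 were kept and tested, and 1 passed, against 10.8% of all loci in either direction. At an unadjusted p under 0.05 there were 9 of the 39, against 7623 of all 23983 loci. DESeq2 called 4, limma-voom 3 and library totals 6. Leaving out high fat library 3 gave 5, and leaving out any other library gave 0. The gene that passed with all libraries was Ppp3r1, the regulatory subunit of the calcium-dependent phosphatase calcineurin. Ppp3r1 averaged 145 ± 19 CPM on the high fat diet and 110 ± 5.5 CPM on the normal diet (SD, n = 3 each), which gives a log2 fold change of 0.39 (SE 0.10, adjusted p = 0.0458 by edgeR). The list had a median log2 fold change of 0.038, and its values lay between -0.88, that of the calcium-dependent kinase gene Camk4 (edgeR adjusted p = 0.0534), and 0.39.

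Stress genes did not fall together with Atf3. Of 21 heat shock, hypoxia and integrated stress response genes tested 5 rose and 0 fell by edgeR, where 5.95% of all loci rose and 4.86% fell. At an unadjusted p under 0.05 8 were higher and 1 lower, where 7623 of all 23983 loci passed in either direction. The median log2 fold change of the list was 0.26. With library totals 2 passed, with high fat library 3 left out 10 did, and with any other library left out 0 did. Hsp90aa1, a cytosolic chaperone, averaged 524 ± 102 CPM on the high fat diet and 345 ± 7.0 CPM on the normal diet, a log2 fold change of 0.60 (edgeR adjusted p = 0.0294). The chaperone and cochaperone genes Dnajb4, Hspd1 and Hspa8 rose by 0.48, 0.39 and 0.32, and Asns, which makes asparagine and is a target of ATF4, by 0.41. Atf4 and Ddit3, which act with Atf3 in the integrated stress response, stood at 0.25 (SE 0.11) and -0.25 (SE 0.16) and did not pass (edgeR adjusted p = 0.163 and 0.299). Summed over the list, the level was 5135, 4294 and 4274 CPM in high fat libraries 1, 2 and 3, against 3739, 3675 and 3626 CPM in normal diet libraries.

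Of 15 islet markers 11 were kept and tested. They were abundant in every library, led among those kept by Iapp at 58831 CPM on the high fat diet and 35729 CPM on the normal diet. Of the 11, 4 rose and 0 fell, with a median log2 fold change of 0.23. At an unadjusted p under 0.05 there were 8, where 7623 of all 23983 loci passed. The list summed to 140158 to 168783 CPM in high fat libraries and 110095 to 126816 CPM in normal diet libraries. Immediate early genes are not specific to one cell type, and in bulk RNA fewer cells of a type and less RNA per cell cannot be told apart. Markers of other cell types moved beside the 4 genes that fell, and their counts stand against 4.86% of all loci lower and 5.95% higher. Of 7 Schwann cell markers 3 fell, Sox10, Ngfr and Gfap, with a median log2 fold change of -0.48 over the list, and the summed level of the list was 17.5 to 25.9 CPM in high fat libraries and 27.2 to 30.8 CPM in normal diet libraries. Of 10 macrophage markers 1 passed, Csf1r at -0.50, with a median of -0.22 over the list, and the sum was 114 to 169 CPM in high fat libraries and 174 to 185 CPM in normal diet libraries. In neither list was a kept marker at 0 in all libraries. Of 21 acinar markers tested 20 had a positive log2 fold change, with a median of 0.59. Of these markers 1 rose past the threshold and 7 had an unadjusted p under 0.05. The list summed to 5487 to 11754 CPM in high fat libraries and 3760 to 7241 CPM in normal diet libraries. Of 11 stromal markers 9 had a negative log2 fold change, with a median of -0.53, and 1 fell, Thy1, while Rgs5 and Acta2 rose. The stromal sum, most of it Rgs5, was 442 to 584 CPM in high fat libraries and 367 to 468 CPM in normal diet libraries. Adipocyte markers summed to 17.6 to 30.2 CPM in high fat libraries and 9.22 to 9.91 CPM in normal diet libraries, with 1 of 2 tested higher and 2 of 5 at 0 in every library. Endothelial markers, with 0 of 9 past the threshold and 1 at an unadjusted p under 0.05, summed to 479 to 587 CPM in high fat libraries and 475 to 544 CPM in normal diet libraries. The part of these cell types in the level of the 9 genes was not tested.

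Genes were compared with the mean centred log2 CPM profile of the 9 genes by the root mean square difference over the 6 libraries. The comparison covered 9623 coding genes with a mean of at least 5 CPM. That mean takes in Btg2 and Klf6, which did not fall, and single genes lay far from it. In high fat library 3 the mean was -0.65, where Fosb was at -1.50 and Btg2 at 0.027. The closest genes therefore resemble an average and not each of the 9 genes. The closest were Napsa, Kdm6b, Dock6, Prr12 and Zmiz2, with differences of 0.0711 to 0.0950, against a median of 0.499 over all genes compared. Kdm6b, which encodes a demethylase of histone H3 lysine 27, had 10.9, 8.57 and 7.67 CPM in high fat libraries 1, 2 and 3, against 18.8, 15.8 and 13.6 CPM in normal diet libraries. Their log2 fold changes lay between -0.83 and -0.61, with 2 of 5 past the threshold, and since they were chosen for their likeness these values are a description.

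**Figure D4:**
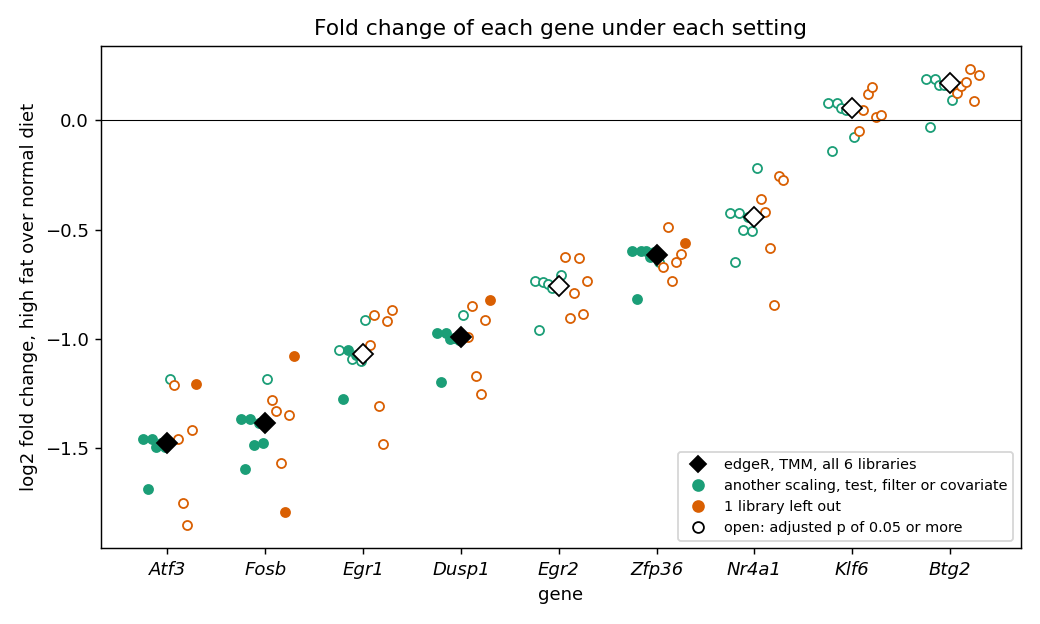
Log2 fold change, high fat over normal diet, of each of the 9 genes with all libraries by edgeR (diamonds), with another scaling, test, filter or covariate (green) and with 1 library left out (orange), where filled symbols have an adjusted p under 0.05. All genes but Klf6 and Btg2 keep a negative value in all 13 alternatives, whereas Klf6 and Btg2 cross 0, and most orange symbols are open.

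All of the 9 genes but Klf6 and Btg2 had a negative log2 fold change in each of the 13 alternative settings, which share libraries and are not independent of each other. Over these settings the value of Fosb lay between -1.79 and -1.08, that of Atf3 between -1.85 and -1.18, that of Dusp1 between -1.25 and -0.82 and that of Zfp36 between -0.82 and -0.49. The calls were less stable than the values. Fosb passed in 8 of the 13 settings, Atf3 in 7, Dusp1 and Zfp36 in 6 each, Egr1 in 3, and the other genes in 0.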

How the data were processed

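The RNA was depleted of ribosomal RNA and made into stranded, paired-end libraries with no poly(A) step, per the labels' protocols. The submitters' processing notes name edgeR, HTSeq 0.5.4p3, TopHat2 2.0.8 and Cufflinks 2.1.1 for build mm9, and whether counting used strand is not given in the sources used here. The authors deposited raw counts per locus, which were used, and assembled transcripts without gene symbols. A table of scaled values was not used. Loci were matched to GENCODE M21 genes by exon and intron lengths on the same chromosome and strand, with no conversion between builds. Chains of 3 or more exons named 18220 loci, and a rule for 2 exons (1 end exon within 40 bases) named 2038, with 179.75 matches on average for shifted introns. Egr1, Btg2 and Zfp36 were named by the second rule. Single-exon loci were not named.

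Loci that passed filterByExpr were scaled by TMM and tested two-sided for diet by quasi-likelihood in edgeR 4.0.16 (R 4.3.3), and with limma 3.58.1 and DESeq2 1.42.0 as alternatives. An SE is the size of the log2 fold change over the root of its F statistic. The tests were tried on simulated counts, and no result of that trial is given or used here. The members, lists and tests were chosen with earlier results of these data known. Besides the 9 genes, those named are in each list the 6 called genes of lowest adjusted p at most, and the 5 closest to the mean pattern. Other names were chosen for their family or after their values were seen.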

Additional observations from a re-analysis of the deposited data

How the results depend on the processing

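With 1 library left out in turn, the number of the 9 genes that were lower ranged between 0 and 4, against 4 with all libraries, that of other early response genes that were lower between 0 and 4, against 2, that of those higher between 0 and 9, against 7, that of upstream signalling genes called between 0 and 5, against 1, and that of stress genes called between 0 and 10, against 5. Over all loci those fits gave 0 to 1960 lower and 0 to 3075 higher, against 1165 and 1426. With normal diet library 1, 2 or 3 left out, 0 loci of any kind passed, while 5500 to 6294 had an unadjusted p under 0.05. An acinar covariate, the acinar marker level of each library, gave 0 calls in every list and over all loci, where 4905 loci, among them 5 of the 9 genes, had an unadjusted p below that value. A replicate block gave 2 of the 9 genes, Fosb and Atf3, 0 early response genes in either direction, 0 upstream or stress genes, and 20 lower and 54 higher loci. The labels name no pairing of libraries. Deviations of same-numbered libraries from their group means correlated at -0.136, 0.0799 and -0.0478, and those of other pairs between -0.212 and 0.235. With 3 libraries per diet these values cannot decide whether the libraries were paired. Library totals in place of TMM moved the median of all loci to -0.25, against -0.050, and that of the 9 genes to -0.96, against -0.76. It gave 11 lower and 2 higher early response genes, 6 upstream genes, 2 stress genes, and 3039 lower and 300 higher loci. Under it Btg2 and Klf6 stood at -0.032 and -0.14. Klf6 stood at -0.077 with the acinar covariate, and between -0.052 and 0.15 with 1 library left out. DESeq2 gave 5 lower early response genes, 4 upstream genes, and 1824 lower and 2242 higher loci. Upstream genes numbered 2 with RLE size factors, 3 with limma-voom and 2 without a filter. Only Egr1, Nr4a1, Zfp36 and Atf3 share 0 exonic bases with another locus. Of these 2 were lower, Atf3 and Zfp36, fewer because fewer genes were counted. Adding Fos to the 9 genes left 4 lower. That alternative, and all those for the higher early response genes, were chosen after seeing the data. The cause of the other changes was not tested. Low depth limits Egr2, Egr3 and Nr4a3.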
